A study of Mus musculus with 4 samples.

Results

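Mitotic genes outside the kinetochore were examined in cultured rib chondrocytes that lack the SUMO protease SENP6 and in their controls. The set holds 44 genes chosen by symbol for their work in G2 and M phase, of 18298 genes that any of the samples had reads for. All 44 had a row in the files and all 44 passed the filter on low counts. RNA came from 2 WT samples (Senp6f/f, without Cre) and 2 Senp6-Mut samples (Dermo1-Cre with Senp6f/f), all on a C57BL/6 background, from rib cartilage of E18.5 embryos and at passage 1. Both groups carry the floxed Senp6 alleles, so the groups differ by the Cre transgene and the deletion together. Dermo1-Cre is expressed from the Twist2 locus in mesenchymal progenitors of bone and cartilage. The study's methods call the n of cell culture work biological replicates, while the labels do not say that they came from separate embryos, so p values measure only the spread between these samples.

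Cells enter mitosis when CDK1 bound to cyclin B becomes active, after CDC25 phosphatases remove its inhibitory phosphates. Aurora and Polo-like kinases then drive spindle assembly, condensins compact the chromosomes, kinesins build and slide the spindle microtubules, and the anaphase-promoting complex with CDC20 marks securin and cyclin B for destruction. Many of these genes are transcribed late in the cell cycle through the MuvB core with B-MYB and FOXM1, and are repressed in resting cells by the DREAM complex, which p21 can engage downstream of p53. Their transcripts are therefore widely used as a readout of cycling cells, and in the growth plate they mark the proliferating chondrocytes.

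Reads counted on genes, in units of 1000, ranged from 21016 to 30995 per sample. Senp6 itself was read 1125 and 2326 times in WT replicates 1 and 2, and 1839 and 1126 times in Senp6-Mut replicates 1 and 2. The groups overlapped, and because the count of the gene also holds exons outside the deleted part, it does not check the labels. Xist was read 11354 times in Senp6-Mut replicate 2 and at most 5 times in the other samples, so the sex pattern differed within the mutant pair and both mutant samples cannot be of the same single embryo. WT replicate 1 stood apart in the genes described here, and results without it follow the account by role. Of 15 chondrocyte markers, all 15 were read, with Col2a1 at an RPKM of 609 and 659 in WT and 334 and 445 in Senp6-Mut, while Col1a1, a collagen of fibroblasts and bone, lay between 3311 and 7253 and was above Col2a1 in each sample.

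No mitotic gene differed between Senp6-Mut and WT chondrocytes beyond the spread between replicates. With edgeR's quasi-likelihood test, adjusted by Benjamini-Hochberg over the 14123 genes tested, 0 of the 44 passed an adjusted p of 0.05 upward and 0 downward, as was the case for all genes (0.0% higher and 0.0% lower). The smallest adjusted p among the 44 in the edgeR test was 0.409. At an unadjusted p under 0.05, 0 of the 44 passed, against 15.6% of all genes tested, and neither DESeq2 nor limma called a member with all 4 samples. The median log2 fold change of the 44, Senp6-Mut over WT, was 0.14, with 38 positive and 6 negative, against a median of 0.01 over all genes with 51.4% positive. The 95% interval held 0 for 44 of 44 genes. It stayed within a 2-fold change in either direction for 43 of 44, the exception being Ect2 with an upper bound of 1.02 on the log2 scale. A change of 2-fold or more thus lay outside the intervals of 43 genes, while smaller changes were not resolved with 2 samples a group.

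The lowest sample was the same for nearly every mitotic gene. The summed RPKM of the 44 genes was 862 in WT replicate 1, 1302 in WT replicate 2, 1252 in Senp6-Mut replicate 1 and 1187 in Senp6-Mut replicate 2. The controls thus bracketed both mutants, with WT replicate 2 at 1.51 times WT replicate 1 and the mutants at 0.962 and 0.912 times WT replicate 2. The genes took 0.268% of all reads in WT replicate 1 and 0.371% to 0.410% in the other samples. On the scale of counts per library size (CPM) after TMM normalization, WT replicate 1 was the lowest of the 4 samples for 43 of 44 genes, against 36.8% of all genes tested. Plk1 was the exception, with Senp6-Mut replicate 2 lowest at a CPM of 110.41, nearly equal to the 110.44 of WT replicate 1. WT replicate 2 was the highest for 30 genes, Senp6-Mut replicate 1 for 10 and Senp6-Mut replicate 2 for 4. In these bulk samples, fewer cycling cells and less of each transcript per cell cannot be told apart.

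**Figure D1:**
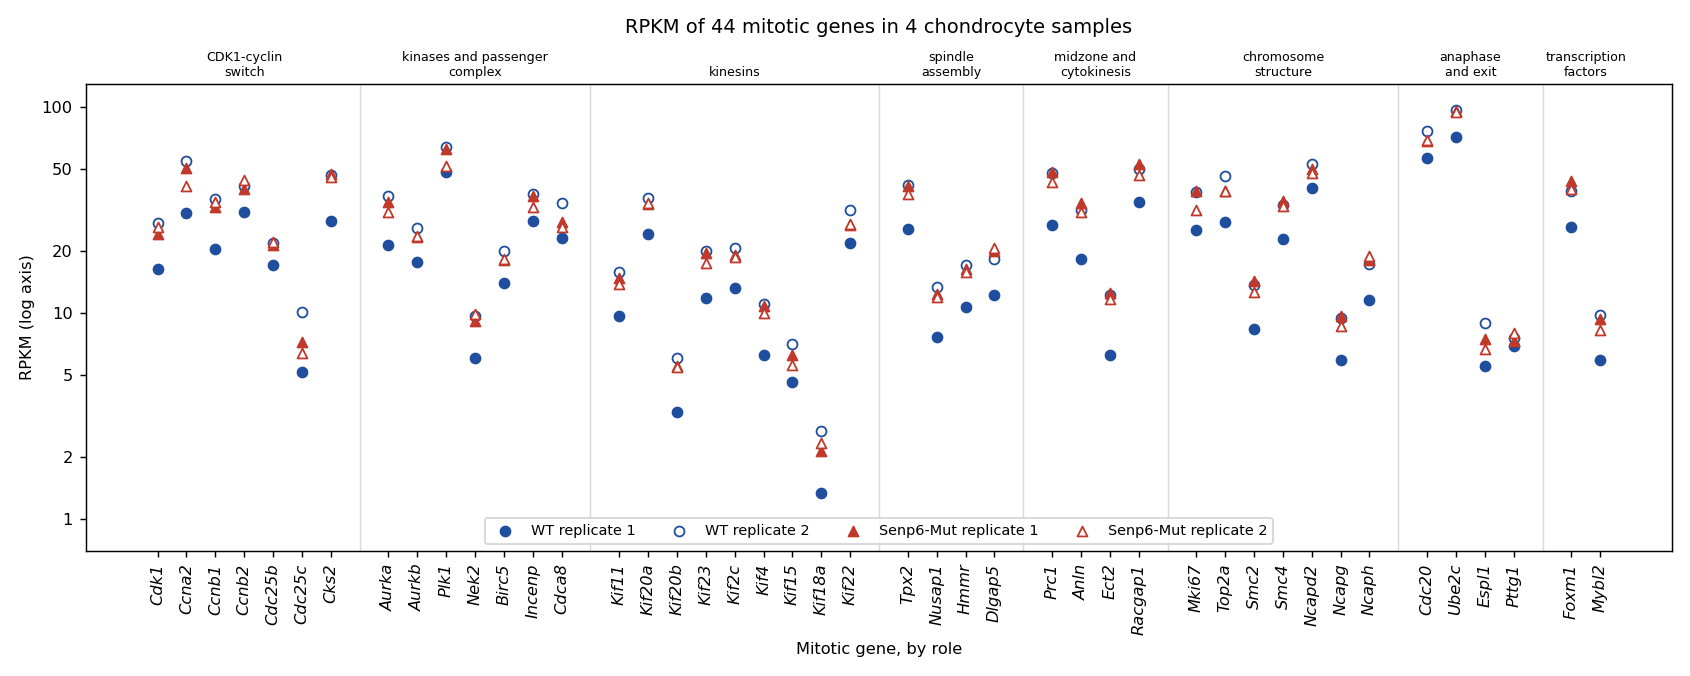
RPKM on a log axis for each of the 44 mitotic genes, ordered by role, with 1 point per sample (circles for WT, triangles for Senp6-Mut, filled for replicate 1 and open for replicate 2). WT replicate 1 lies lowest for all 44 genes on the RPKM scale, while WT replicate 2 and both mutants lie close together.

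Genes of the CDK1-cyclin switch did not separate the genotypes, and none of the 7 had an adjusted p below 0.625. Ccna2, the cyclin A of S and G2 phase, had an RPKM of 30.6 and 54.7 in WT replicates 1 and 2 and of 50.9 and 41.5 in Senp6-Mut replicates 1 and 2. Its mutant values fell between those of the controls. Cks2, a small CDK-binding subunit, had an RPKM of 28.1 and 46.6 in WT and of 47.1 and 45.9 in Senp6-Mut, so WT replicate 1 lay below 3 samples that were close together. Cdk1, the kinase itself, was at 16.4 and 27.4 in WT and 24.1 and 26.1 in Senp6-Mut (log2 fold change 0.16, standard error 0.223, edgeR adjusted p = 0.791). Ccnb1 and Ccnb2, the mitotic cyclins, had log2 fold changes of 0.22 and 0.18. The phosphatase gene Cdc25b had one of 0.12, with RPKM values of 17.2 and 22.01 in WT and 21.5 and 22.2 in Senp6-Mut. Cdc25c had the lowest log2 fold change of the 44 genes, -0.20 with a 95% interval from -0.92 to 0.52, on RPKM values of 5.17 and 10.1 in WT and 7.21 and 6.42 in Senp6-Mut. WT replicate 2 was the sample with the high value there.

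The mitotic kinases and the chromosomal passenger complex, in which Aurora B acts with survivin, borealin and INCENP, held 7 genes whose log2 fold changes had a median of 0.06. Plk1, the kinase that triggers centrosome maturation and mitotic entry, had an RPKM of 48.4 and 64.0 in WT and of 62.7 and 51.5 in Senp6-Mut. Its pairs were about equally wide and overlapped, and the log2 fold change was -0.01 with a standard error of 0.176 (adjusted p = 0.978 in edgeR). Incenp, the scaffold of the passenger complex, was at 28.1 and 37.8 in WT and 37.1 and 32.7 in Senp6-Mut. Aurka, the spindle pole kinase, was at 21.4 and 37.0 against 34.8 and 31.0, and Aurkb at 17.7 and 25.8 against 23.3 and 23.6. In each of these 3 genes both mutants lay between the controls. Birc5, which encodes survivin, had a log2 fold change of 0.06, Nek2, a kinase of centrosome separation, one of 0.23, and Cdca8, which encodes borealin, one of -0.13. None of the 7 had an edgeR adjusted p below 0.676.

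The 9 kinesin genes had log2 fold changes between -0.02 and 0.22 with a median of 0.14. Kif20a, which carries the passenger complex to the midzone, had an RPKM of 24.3 and 36.3 in WT and of 34.0 and 34.3 in Senp6-Mut. Kif22, a chromokinesin, was at 21.9 and 31.5 in WT and at 26.9 and 27.1 in Senp6-Mut. The mutants were close to each other and between the controls in both genes. Kif11, the motor that separates the spindle poles, had a log2 fold change of 0.14, and so did Kif20a. Those of Kif23, Kif20b, Kif2c, Kif18a, Kif15 and Kif22 were 0.18, 0.19, 0.12, 0.11, -0.02 and -0.02. Kif4, which is X-linked, had one of 0.22, with RPKM values of 6.27 and 11.1 in WT and 10.8 and 10.1 in Senp6-Mut, the last being the sample with Xist reads. Kif18a, a motor that dampens chromosome movement, was the least abundant of the 44 genes per length, at 1.34 and 2.68 in WT and 2.14 and 2.34 in Senp6-Mut, and it rested on 98 to 244 reads.

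The spindle assembly genes held the smallest p of the set. Dlgap5, a microtubule-binding protein of the spindle, had an RPKM of 12.3 and 18.3 in WT and of 20.03 and 20.8 in Senp6-Mut. Both mutants were above both controls, and the log2 fold change was 0.38 (standard error 0.190, 95% interval -0.08 to 0.83, unadjusted p = 0.0897, edgeR adjusted p = 0.409). Tpx2, the activator of Aurora A, was at 25.6 and 41.9 in WT and 41.5 and 37.7 in Senp6-Mut, so that the mutants lay within the range of the controls. Nusap1 and Hmmr, which bundle and anchor spindle microtubules, both had log2 fold changes of 0.17.

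The genes of the central spindle and of cytokinesis had the highest median log2 fold change of the role groups with more than 2 genes, 0.31 over 4 genes. Anln, which encodes the contractile ring protein anillin, had an RPKM of 18.3 and 31.5 in WT and of 34.1 and 30.9 in Senp6-Mut (log2 fold change 0.35, standard error 0.237, edgeR adjusted p = 0.547). Racgap1, a subunit of centralspindlin, was at 34.5 and 50.2 against 53.02 and 46.7. Prc1, the crosslinker of the midzone, was at 26.8 and 48.0 against 48.5 and 43.2. In all 3 genes Senp6-Mut replicate 2 was below WT replicate 2, so the groups overlapped. Ect2, the RhoA exchange factor that positions the furrow, was at 6.29 and 12.2 in WT and 12.5 and 11.7 in Senp6-Mut, with a log2 fold change of 0.36 and an interval from -0.31 to 1.02.

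Among 7 genes of chromosome structure, the log2 fold changes were between 0.02 and 0.32. Ncapd2, a condensin subunit, had an RPKM of 40.7 and 52.9 in WT and of 49.9 and 47.7 in Senp6-Mut, and Top2a, the topoisomerase that untangles sister chromatids, was at 27.8 and 46.5 against 39.3 and 39.2. Both mutants lay between the controls in these genes. Mki67, which encodes the proliferation antigen Ki-67, was at 25.3 and 38.7 in WT and 39.2 and 31.7 in Senp6-Mut (log2 fold change 0.11, standard error 0.215, edgeR adjusted p = 0.853). Smc4 was at 23.0 and 33.4 in WT and 34.9 and 33.1 in Senp6-Mut. Ncaph, the kleisin of condensin I, was at 11.6 and 17.3 in WT and 18.1 and 18.9 in Senp6-Mut, which placed both mutants above both controls (log2 fold change 0.32, standard error 0.191, 95% interval -0.14 to 0.78, edgeR adjusted p = 0.492). The log2 fold changes of the condensin genes Smc2, Smc4 and Ncapg were 0.26, 0.23 and 0.22.

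The 4 anaphase and exit genes had log2 fold changes with a median of 0.02, and none had an edgeR adjusted p below 0.743. Ube2c, the ubiquitin-conjugating enzyme of the anaphase-promoting complex, had the highest RPKM of the 44 genes, 71.5 and 97.3 in WT and 95.7 and 94.99 in Senp6-Mut. Cdc20, its mitotic activator, was at 56.8 and 76.8 in WT and 68.6 and 69.4 in Senp6-Mut, and its log2 fold change was 0.0074 with a standard error of 0.158 (adjusted p = 0.987 in edgeR). WT replicate 1 was again the low sample in both genes. Espl1, which encodes separase, had a log2 fold change of -0.07, and Pttg1, which encodes its inhibitor securin, one of 0.03. Pttg1 was the gene that varied least between the controls, with RPKM values of 6.95 and 7.55 in WT and 7.30 and 7.96 in Senp6-Mut.

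The transcription factors of the program differed between the genotypes by less than the test could resolve. Foxm1, the forkhead activator of G2 and M genes, had an RPKM of 26.3 and 39.1 in WT and of 43.7 and 40.2 in Senp6-Mut. Both mutants were above both controls, and the log2 fold change was 0.32 (standard error 0.189, 95% interval -0.13 to 0.78, edgeR adjusted p = 0.484). Mybl2, which encodes B-MYB, was at 5.94 and 9.81 in WT and at 9.40 and 8.26 in Senp6-Mut, within the range of the controls. Dlgap5, Ncaph and Foxm1 were the 3 of 44 genes with both mutants above both controls on the CPM scale, against 25.4% of all genes tested. None of the 44 had both mutants below both controls, against 22.8% of all genes.

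**Figure D2:**
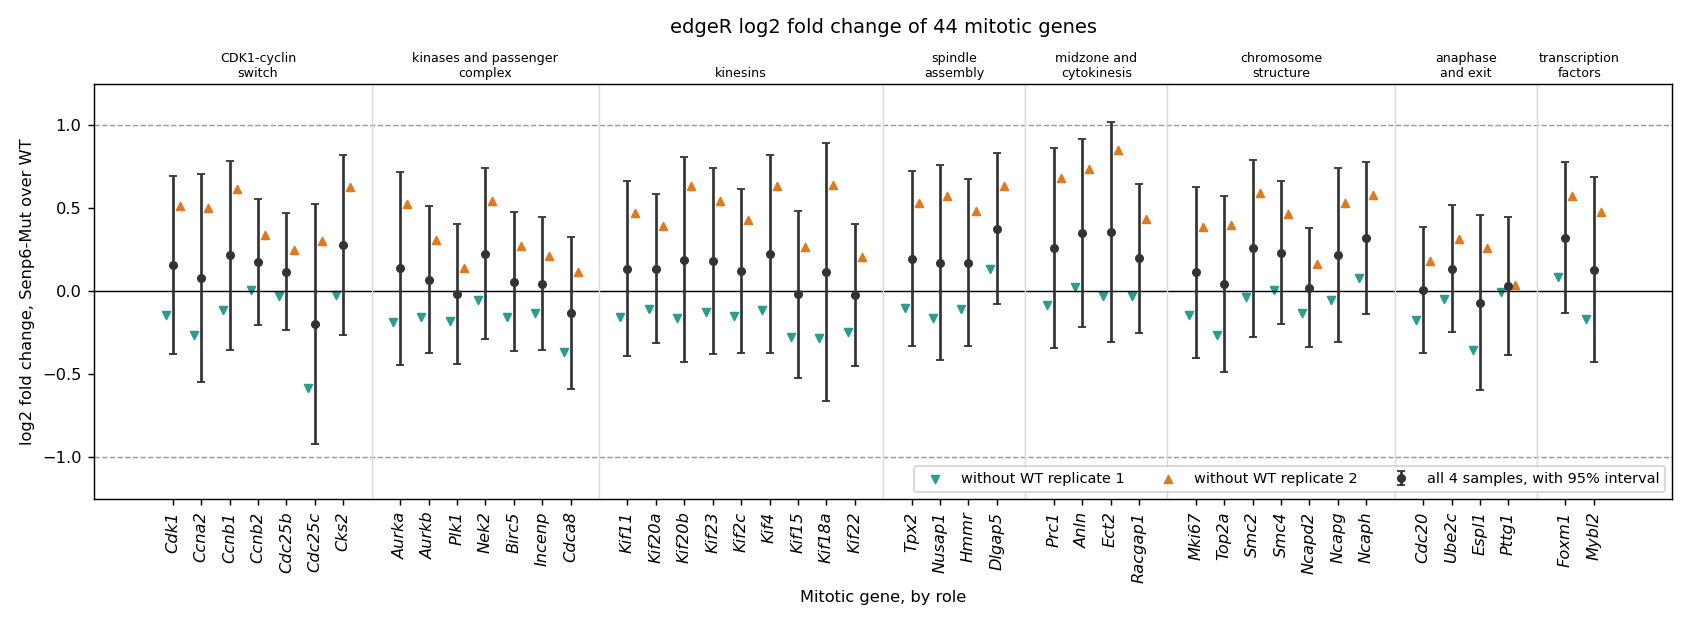
Log2 fold change of each mitotic gene, Senp6-Mut over WT, from edgeR with all 4 samples (black, bars are 95% intervals) and with either WT replicate left out (coloured triangles). All 44 intervals hold 0, and for 38 genes the direction turns with the WT replicate left out. Dashed lines mark a 2-fold change.

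The sign of the comparison rested on which WT replicate entered it. Without WT replicate 1, the median log2 fold change of the 44 genes was -0.13, with 6 positive and 38 negative against 48.7% positive over all genes, and 0 genes were called by edgeR in either direction (all genes, 3.72% higher and 1.06% lower). The smallest edgeR adjusted p in that fit was 0.0848, for Cdc25c at a log2 fold change of -0.58. Without WT replicate 2, the median was 0.47, all 44 were positive against 50.8% over all genes, and 26 of 44 were called higher by edgeR (all genes, 9.42% higher and 10.6% lower). The lowest edgeR adjusted p there was 0.00168, for Ect2 at a log2 fold change of 0.85. By role, the 26 were 3 of 7 genes of the CDK1-cyclin switch, 2 of 7 kinases and passenger genes, 6 of 9 kinesins, 4 of 4 spindle assembly genes, 4 of 4 midzone genes, 5 of 7 chromosome structure genes, 0 of 4 anaphase genes and 2 of 2 transcription factors. The medians of all 8 role groups were negative without WT replicate 1, from -0.16 for the kinases and passenger genes to -0.03 for the midzone genes, and positive without WT replicate 2, from 0.22 for the anaphase genes to 0.71 for the midzone genes. For 38 of the 44 genes the sign turned between these fits, and 6 stayed positive in both. Dlgap5 had a log2 fold change of 0.14 without WT replicate 1 and of 0.64 without WT replicate 2, Ncaph of 0.08 and 0.58, and Foxm1 of 0.08 and 0.58. Anln had 0.03 and 0.73, Smc4 0.0078 and 0.46, and Ccnb2 0.0079 and 0.34. Without WT replicate 2 edgeR called 5 of these 6 higher, the exception being Ccnb2 with an adjusted p of 0.0821. Both fits hold 1 control sample, whose variation is taken to be like that of the mutant pair.

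The difference between the controls ran in 1 direction through the set. WT replicate 1 was below WT replicate 2 for 44 of 44 genes, against 50.4% of all genes tested, by a median of 0.61 on the log2 CPM scale. The difference, WT replicate 1 minus replicate 2, ranged from -0.93 for Kif18a to -0.06 for Pttg1. It was widest in the midzone group (median -0.75) and narrowest in the anaphase and exit group (median -0.38). Against the mutants alone, WT replicate 2 was above their mean for 37 of 44 genes (all genes, 51.0%), by a median of 0.13. The mutant samples lay closer to each other, with a median difference, replicate 1 minus replicate 2, of 0.11. Senp6-Mut replicate 1 was the higher of the pair for 35 of 44 genes (all genes, 47.9%), by at most 0.35, for Mki67. With 1 library at each end, none of these differences between replicates can be tested, and genes read from the same libraries are not independent.

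**Figure D3:**
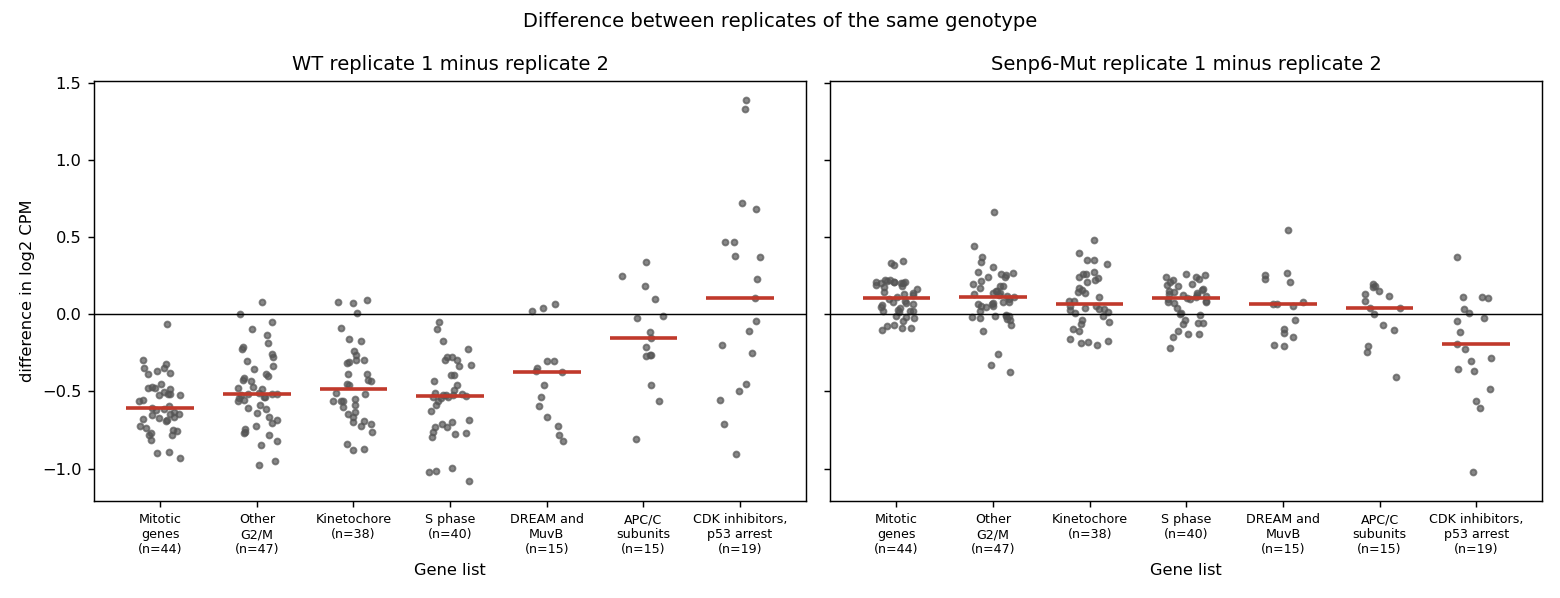
Difference in log2 CPM between replicate 1 and replicate 2 of WT (left) and of Senp6-Mut (right), with 1 point per gene and the median as a red bar, for the mitotic genes and 6 other cell cycle lists. In WT the mitotic genes have a median of -0.61 and all 44 lie below 0, while in Senp6-Mut the median is 0.11.

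WT replicate 1 was also the low sample for most genes in other parts of the cell cycle program. Of 47 further G2 and M genes, 0 were called higher or lower by edgeR at an adjusted p under 0.05, 4 passed at an unadjusted p under 0.05, and the median log2 fold change was 0.10. WT replicate 1 was lowest for 36 of them. The most abundant were Tubb4b, a tubulin, Cks1b, a CDK-binding subunit, and Cdca3, with log2 fold changes of 0.21, -0.19 and -0.08. For 38 kinetochore genes the median was 0.08 and for 40 S phase genes 0.07, with 0 called by edgeR in either list. At an unadjusted p under 0.05 there were 3 kinetochore genes and 1 S phase gene, Ccne1, which is named after its values were seen. Its log2 fold change was 0.76, and with all 4 samples DESeq2 called it, while the main edgeR fit and limma did not. WT replicate 1 was lowest for 31 and 35 genes. Pcna, the sliding clamp of replication, had an RPKM of 60.3 and 90.4 in WT and of 87.3 and 83.1 in Senp6-Mut, in the same order of samples as the mitotic genes. Bub3, Pmf1 and Cenpa led the kinetochore list by RPKM with log2 fold changes of 0.05, -0.29 and 0.22, and Rrm2 and Rrm1, which encode ribonucleotide reductase, followed Pcna with 0.42 and 0.28. Without WT replicate 1 the medians of the 3 lists were -0.14, -0.14 and -0.17, and without WT replicate 2 they were 0.40, 0.33 and 0.34. Without WT replicate 2 edgeR called 17 of 47 further G2 and M genes, 10 of 38 kinetochore genes and 8 of 40 S phase genes higher, and 2 kinetochore genes lower. Without WT replicate 1 it called 1 further G2 and M gene lower and 1 S phase gene higher.

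Markers of other cell types differed between the controls as well. The summed RPKM of 4 tested osteoblast markers of 7 was 172 in WT replicate 1 and 69.8 in WT replicate 2, against 19.2 and 40.2 in the mutants, while Bglap was read at most 3 times. For 14 of 14 striated muscle markers the sum was 138 and 42.9 in WT and 241 and 267 in Senp6-Mut, and WT replicate 2 was lowest for all 14. The sum of 10 fibroblast and perichondrium markers, all tested, was 12940 and 8997 in WT and 9078 and 6704 in Senp6-Mut. Most of this sum was Col1a1, Col1a2 and Col3a1. Of the 10 log2 fold changes 7 were negative and 3 positive, with Thy1 at an RPKM of 219 and 341 in WT and 609 and 832 in Senp6-Mut. Chondrocyte markers summed to 1064 and 1042 in WT and to 524 and 661 in Senp6-Mut. Macrophage markers, 10 of 10 tested, summed to 26.5 and 23.3 against 11.1 and 15.4, and the 4 tested of 8 endothelial markers summed to between 0.762 and 1.30. None of 9 blood markers passed the filter, 3 had no row and no other had over 9 reads in a sample. In these 7 lists edgeR called 0 genes in either direction. An unadjusted p of 0.05 in edgeR was passed by 12 of 15 chondrocyte, 3 of 4 osteoblast and 8 of 14 muscle markers. So it was by 4 of 10 macrophage, 2 of 4 endothelial and 4 of 10 fibroblast markers, against 15.6% of all genes tested. DESeq2 called 11 chondrocyte, 2 osteoblast and 1 macrophage markers lower and 3 muscle and 1 fibroblast markers higher. Over all 14123 genes tested it called 267 lower and 439 higher. The part of these markers in the values of the mitotic genes was not tested.

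Most promoter windows found for the mitotic genes held 2 sequence features. Sequence was not used to choose the genes, but many genes of G2 and M phase are transcribed through MuvB, so the features are not independent of the choice. The CHR, the cell cycle genes homology region bound by MuvB complexes, was searched as TTTGAA or TTCGAA, and the CCAAT box of the factor NF-Y as CCAAT, on both strands of windows from 250 bases before to 50 bases after each transcript start in RefSeq on GRCm38.p6. Of the 44 genes, 35 had a window, 37 windows in all, as Ect2 and Prc1 had 2 overlapping ones. CHR letters were in 28 of 37 windows (75.7%), against 19.2% of all 32851 promoter windows. CCAAT letters were in 27 of 37 (73.0%), against 37.4%, and both were in 24 of 37 (64.9%), against 7.52%. The E2F letters TTCCCGC or TTTGGCGC were in 4 of 37 windows (10.8%), against 5.06%. By position, the CHR matches were most frequent in the 50 bases after the start (43.2 per 100 windows, against 2.67 over all promoters), and the CCAAT matches in the 50 bases before it (56.8 against 9.98). These shares are a description with no test. The windows of all promoters cover 27025 genes, more than the 18298 with reads here, while all 44 mitotic genes were read. Promoters of 4 genes are shown as examples from the CDK1-cyclin and kinase groups, from 110 bases before to 30 after the start, 5′ to 3′ on the strand of the gene, with CHR and CCAAT letters of either strand in capitals.
Ccnb2, chr9:70421525-70421664, minus strand: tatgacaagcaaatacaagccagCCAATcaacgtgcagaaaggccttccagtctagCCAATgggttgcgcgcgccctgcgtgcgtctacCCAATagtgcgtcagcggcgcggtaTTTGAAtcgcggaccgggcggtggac
Cdc25b, chr2:131186838-131186977, plus strand: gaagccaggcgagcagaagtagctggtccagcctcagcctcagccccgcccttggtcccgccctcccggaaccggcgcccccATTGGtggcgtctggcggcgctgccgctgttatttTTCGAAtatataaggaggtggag
Cdk1, chr10:69352883-69353022, minus strand: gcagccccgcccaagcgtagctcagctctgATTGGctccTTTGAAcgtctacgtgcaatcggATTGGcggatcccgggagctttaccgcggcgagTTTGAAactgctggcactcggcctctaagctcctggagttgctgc
Cdca8, chr4:124936888-124937027, minus strand: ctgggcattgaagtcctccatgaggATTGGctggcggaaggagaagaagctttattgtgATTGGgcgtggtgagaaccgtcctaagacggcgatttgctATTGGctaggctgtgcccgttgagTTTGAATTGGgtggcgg

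Counted from the start, with the base before it as -1, the CHR letters of Ccnb2, Cdc25b and Cdca8 began at positions 5, 8 and 14, and those of Cdk1 at -71 and -15. The CCAAT letters of Ccnb2 began at -87, -54 and -21, and those of Cdca8 at -85, -51, -11 and 19, the last of which overlapped its CHR. These matches describe letters in the reference sequence, and binding was not measured here. The 4 genes had log2 fold changes of 0.18, 0.12, -0.13 and 0.16 for Ccnb2, Cdc25b, Cdca8 and Cdk1. On the RPKM scale WT replicate 1 was lowest for all 44 genes, so this rank cannot set genes with CHR letters apart from others. The size of its low value was not compared between genes with and without CHR letters. Genes without a window were not searched, and a part of the CHR in that low value was not tested.

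**Figure D4:**
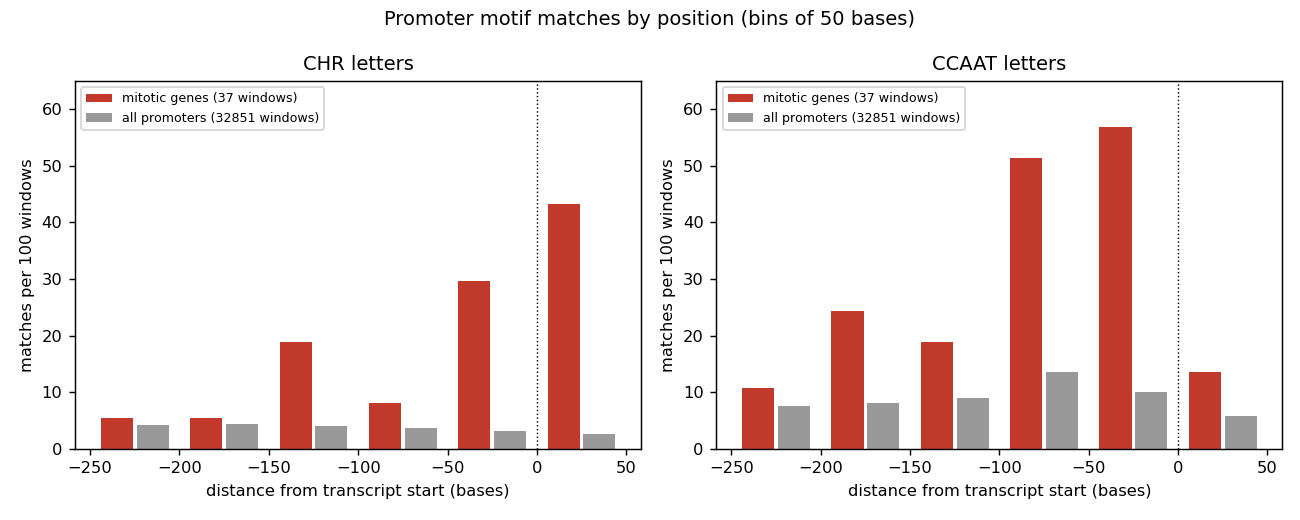
Matches of the CHR letters (left) and of the CCAAT letters (right) per 100 promoter windows, in bins of 50 bases from 250 before to 50 after the transcript start, for the 37 windows of the mitotic genes (red) and all 32851 windows (grey). The CHR matches peak at 43.2 just after the start and the CCAAT matches at 56.8 just before it.

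For 10 of the 44 genes another protein-coding gene overlaps in RefSeq, such as Cstf1 with Aurka, Exosc9 with Ccna2, Elovl1 with Cdc20 and Rccd1 with Prc1. As no strand setting of the counting is stated, reads of such pairs may not be told apart.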

How the data were processed

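RNA of 4 samples of cultured chondrocytes was sequenced by the BGI service. Per sample, the authors deposited raw counts of reads for each gene. Beside them they deposited RPKM, those counts scaled by gene length and by all reads counted on genes. Genes absent from a file were given a count of 0. The submitters' notes name SAMtools and mm9, while the aligner, counter and annotation are not given in the sources used here. From the counts, edgeR 4.0.16 (R 4.3.3) was run with TMM factors (0.966 to 1.03), robust quasi-likelihood estimation and Benjamini-Hochberg adjustment, over the 14123 genes that reached 10 counts in 2 or more samples. CPM are from this fit, log2 CPM with a prior count of 2. Standard errors and 95% intervals come from the F statistic. RPKM were used as deposited. At the lowest depth 10 counts on 2 kb are an RPKM of 0.238. DESeq2 1.42.0 and limma 3.58.1 were alternatives, beside other scalings, filters, a replicate block and leaving out each sample. The chi-square between replicates, per degree of freedom, was 50.3 in WT and 24.1 in Senp6-Mut. Each sample was counted as a replicate, while these values do not tell whether samples came from separate embryos. An edgeR fit of the same kind was tested on simulated counts for 4 samples, while DESeq2, limma and the promoter search were not.

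The members and lists were chosen with earlier results of these data known. All members could be named. Values per sample were given for the most abundant genes of each role, the 5 with the smallest p and some chosen after their values were seen (Cdk1, Cdc25b, Cdc25c, Aurka, Aurkb, Kif4, Kif18a, Ect2, Mki67, Pttg1). Other lists were named by their 3 most abundant genes, and markers by Col2a1, Col1a1, Col1a2, Col3a1, Thy1 and Bglap, chosen after their values were seen. Promoters shown are those of the genes with the smallest p in the CDK1-cyclin, kinase and transcription factor groups that hold CHR letters in the stretch. Chromosome 18 was left out. Of 37 windows, 31 ended within a GENCODE M21 transcript of the gene on the same strand. Promoter coordinates are those of RefSeq and were not joined with the files.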

Additional observations from a re-analysis of the deposited data

How the results depend on the processing

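The count of mitotic genes called was 0 in each direction with all 4 samples under each of the 9 alternatives. With 1 sample left out in turn it ranged from 0 to 26 higher and was 0 lower, the 26 without WT replicate 2, and the median log2 fold change ranged from -0.128 without WT replicate 1 to 0.474 without WT replicate 2. The median was between 0.124 and 0.224 under the other alternatives. Over all genes, DESeq2 called 439 higher and 267 lower, edgeR without scaling factors 6 and 2, and edgeR without a filter on low counts 225 and 61. The replicate block called 84 and 33. The labels do not say whether the replicate numbers pair the samples. The correlation of the replicate differences between genotypes across genes was -0.0422, which cannot decide it, as it rests on 1 difference per genotype. The block changed the call of no mitotic gene, while it brought the edgeR adjusted p of Cdkn1a to 0.0463. With 1 sample left out, the counts ranged from 96 to 1331 higher and from 47 to 1492 lower. The cause of these changes in counts was not tested.

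Sign changes with all 4 samples were small. The log2 fold change of Cdc20 was -0.007 with DESeq2 and with RLE factors, and -0.0038 without a filter. Without scaling factors it was 0.02 for Plk1, Kif15 and Kif22. On log2(RPKM + 1) it was 0.03 for Plk1, 0.04 for Kif15, 0.04 for Kif22 and 0.002 for Espl1, and on log2(RPKM + 0.1) it was 0.03, 0.05, 0.04 and 0.0066. With the replicate block it was 0.0043 for Kif15. With 1 sample left out the sign changed for 38 genes, most with WT replicate 1 at 1 end and WT replicate 2 at the other. The lowest and highest log2 fold changes were -0.14 and 0.51 for Cdk1, -0.26 and 0.50 for Ccna2, -0.11 and 0.61 for Ccnb1, -0.03 and 0.25 for Cdc25b, -0.58 and 0.30 for Cdc25c, -0.02 and 0.63 for Cks2, -0.19 and 0.53 for Aurka, -0.16 and 0.31 for Aurkb, -0.18 and 0.14 for Plk1, -0.05 and 0.55 for Nek2, -0.16 and 0.27 for Birc5, -0.13 and 0.22 for Incenp, -0.37 and 0.12 for Cdca8, -0.15 and 0.47 for Kif11, -0.10 and 0.40 for Kif20a, -0.16 and 0.63 for Kif20b, -0.13 and 0.55 for Kif23, -0.15 and 0.43 for Kif2c, -0.11 and 0.64 for Kif4. They were -0.28 and 0.27 for Kif15, -0.28 and 0.64 for Kif18a, -0.24 and 0.21 for Kif22, -0.10 and 0.53 for Tpx2, -0.16 and 0.58 for Nusap1, -0.11 and 0.49 for Hmmr, -0.08 and 0.68 for Prc1, -0.03 and 0.85 for Ect2, -0.03 and 0.43 for Racgap1, -0.14 and 0.39 for Mki67, -0.26 and 0.40 for Top2a, -0.03 and 0.59 for Smc2, -0.13 and 0.16 for Ncapd2, -0.06 and 0.53 for Ncapg, -0.17 and 0.18 for Cdc20, -0.05 and 0.32 for Ube2c, -0.35 and 0.26 for Espl1, -0.01 and 0.08 for Pttg1, and -0.17 and 0.48 for Mybl2.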

Other observations

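A list of 19 genes held CDK inhibitors and p53 arrest genes, with Trp53 and with Mdm2, which encodes a ligase that destabilizes p53. At an adjusted p under 0.05 edgeR called 0 of them, and 7 passed at an unadjusted p under 0.05 (15.6% of all genes tested). In 8 both mutants were above both controls (25.4% of all genes tested), and in 3 both were below (22.8%). DESeq2 called 5 of the 19 higher, Cdkn1a, Mdm2, Ccng1, Btg2 and Rprm, and limma called 0. The median log2 fold change of the list was 0.05, with 0.27 and 1 gene called higher by edgeR without WT replicate 1, and 0.13 with 5 higher and 4 lower without WT replicate 2. Cdkn1a, which encodes p21, had an RPKM of 57.7 and 84.6 in WT and of 122 and 176 in Senp6-Mut, and its log2 fold change had a 95% interval from 0.48 to 1.57 (edgeR adjusted p = 0.115). With 1 sample left out the edgeR adjusted p of Cdkn1a was 0.110 without WT replicate 1, 0.0102 without WT replicate 2, 0.0017 without Senp6-Mut replicate 1 and 0.189 without Senp6-Mut replicate 2, at log2 fold changes from 0.76 to 1.27. Cdkn1c, which encodes p57, was the most abundant of the list, at 193 and 79.9 in WT and 103 and 161 in Senp6-Mut. Trp53 was at 102 and 127 against 119 and 124. The list did not follow the order of samples of the mitotic genes as a whole, since WT replicate 1 was lowest for 7 of 19.

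A list of 15 genes held DREAM and MuvB subunits, and beside them Rb1 and further E2F repressor genes such as E2f6. Its median log2 fold change was 0.13, and WT replicate 1 was lowest for 12 of 15. The median turned to -0.04 without WT replicate 1, with 7 positive and 8 negative and 0 called, and was 0.43 without WT replicate 2, with 5 called higher by edgeR. With all 4 samples edgeR called 0 and 2 passed at an unadjusted p under 0.05, Rb1 and the repressor gene E2f6, at log2 fold changes of 0.44 and 0.62, both, like the 5 above but for Cdkn1a, named after their values were seen. Tfdp1, E2f4 and Rbbp4 were the most abundant, with log2 fold changes of 0.22, 0.11 and 0.15. The 15 anaphase-promoting complex genes had a median of -0.16, with 0 called by edgeR, 2 at an unadjusted p under 0.05, and 7 of 15 with both mutants below both controls against 22.8% of all genes. The median was -0.14 with 0 called without WT replicate 1, and -0.12 with 2 higher and 2 lower without WT replicate 2. Ube2s, Anapc5 and Anapc2 led by RPKM, with log2 fold changes of 0.19, -0.18 and -0.22. In this list WT replicate 1 was lowest for 6 of 15, near the 36.8% of all genes.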
